A study of Homo sapiens with 18 samples.

Results

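The HOX cluster genes encode homeodomain transcription factors, and they were followed here across 3 breast epithelial lines with and without CRISPR targeting of METTL3, the catalytic subunit of the complex that writes N6-methyladenosine (m6A) on mRNA. Members were protein-coding genes named HOXA, HOXB, HOXC or HOXD with a paralogue number. Of 38 such genes considered, 28 were among the 35933 genes of the deposited table. These were 10 HOXA, 9 HOXC, 7 HOXB and 2 HOXD genes. HOXB1, HOXB4, HOXB13, HOXD1, HOXD3, HOXD4, HOXD8, HOXD9, HOXD10 and HOXD13 were not analysed here.

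HOX genes lie in clusters in which the gene order along the chromosome follows the order of expression along the body axis, with low paralogue numbers anterior and high numbers posterior. Cells keep the HOX code of their origin for long periods, through Polycomb complexes that hold genes silent and Trithorax/MLL complexes that hold them active. HOX proteins bind DNA together with cofactors of the TALE class (PBX, MEIS and PKNOX), and retinoic acid is a classical inducer of the anterior genes. In breast epithelium several HOX genes are known from duct development and from tumours, where their expression can be altered.

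RNA was sequenced from 18 libraries in 6 groups of 3 (replicates a, b and c). MCF10A is a non-tumorigenic breast line that immortalized spontaneously, MCF10AT1 was made from it with mutated HRas, and MCF10CA1h was obtained from MCF10AT1 by serial passage as mouse xenografts. Each line was taken as a negative CRISPR control (Cas9 with a control guide) and as a METTL3 knockdown (Cas9 with a guide to the first exon of METTL3). The knockdown and control lines were grown from single sorted cells, so a group is a clonal line, and its 3 libraries do not measure the spread between clones. An effect of METTL3 targeting and a difference between clones therefore cannot be told apart in any line. Nothing in the sources shows whether replicates were separate cultures, and the p-values then cover only the spread between these libraries.

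METTL3 RNA itself was 632 ± 154 normalized counts (SD, n = 3) in MCF10A control and 810 ± 261 in the libraries labelled MCF10A knockdown, 128% of control. In MCF10AT1 it was 930 ± 111 in control and 823 ± 75.2 in knockdown, 88.5% of control. In MCF10CA1h it was 1135 ± 132 and 804 ± 52.3, 70.8% of control. An exact two-sided permutation test gave p = 0.3, 0.3 and 0.1, where 0.1 is the smallest p that 3 against 3 libraries allow, and limma's test over all genes gave METTL3 a log2 change of -0.49 in MCF10CA1h (adjusted p = 0.0234). In MCF10A the METTL3 RNA means thus stood the other way from the label. The difference was less than the SD of the libraries labelled knockdown and more than that of the control libraries. The study chose its clones by Western blot of METTL3 protein, which these data do not measure. It also measured METTL3 RNA by real-time PCR and reported a decrease in the knockdown lines, weaker than that of the protein. The MCF10A means here did not show that decrease, and the cause was not tested. The sums of normalized counts ran from 21347352 to 31681834 per library, and the number of reads was not recoverable from the table. The MCF10AT1 knockdown stood apart from the control of its own line. Correlations were taken over log2(value + 1) of the 15897 genes with a mean of at least 10. Its libraries had r = 0.755 to 0.857 with MCF10AT1 control, 0.679 to 0.825 with MCF10A control and 0.828 to 0.866 with MCF10CA1h control. MCF10AT1 control libraries had 0.874 to 0.943 among themselves, and MCF10A and MCF10CA1h control had 0.832 to 0.890 with each other. The 12 epithelial markers summed to 23976 to 48594 in MCF10AT1 knockdown against 70272 to 104796 in MCF10AT1 control. Of those 12, 9 were called lower, and ESRP1 had a mean under 10 there and in no other group. KRT19 was under 10 in every group but MCF10AT1 control, and RAB25 in MCF10CA1h as well. CDH1, the epithelial cadherin, fell by 6.79 on the log2 scale (limma, adjusted p = 0.000474). Fibroblast or mesenchymal markers (12 genes) summed to 119037 to 207773 against 3785 to 5132. Of 4 leukocyte markers in the table, PTPRC, CD3E and LYZ had means under 10 in all 6 groups, whereas CD68 was 145 to 2006. Of 5 endothelial markers CDH5 and VWF had means under 10 in all groups, KDR and TEK passed 10 in MCF10A control, and PECAM1 was 15.9 to 849. In bulk RNA, fewer cells that express a gene and less RNA per cell cannot be told apart.

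The sequence before HOXA11, the member with the largest change, is shown with that of HOXA13, the next HOXA gene, to set the 2 promoters side by side. Both are 250 bases upstream of the RefSeq start, in GRCh38.p14, read 5′ to 3′ on the minus strand of chromosome 7, with CG dinucleotides in capitals.
HOXA11, chr7:27185233-27185482: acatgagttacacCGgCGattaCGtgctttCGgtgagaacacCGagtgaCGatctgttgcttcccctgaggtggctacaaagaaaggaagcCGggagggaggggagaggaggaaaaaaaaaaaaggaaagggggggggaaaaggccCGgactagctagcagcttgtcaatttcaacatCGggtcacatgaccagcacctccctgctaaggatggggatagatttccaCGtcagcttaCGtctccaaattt
HOXA13, chr7:27200092-27200341: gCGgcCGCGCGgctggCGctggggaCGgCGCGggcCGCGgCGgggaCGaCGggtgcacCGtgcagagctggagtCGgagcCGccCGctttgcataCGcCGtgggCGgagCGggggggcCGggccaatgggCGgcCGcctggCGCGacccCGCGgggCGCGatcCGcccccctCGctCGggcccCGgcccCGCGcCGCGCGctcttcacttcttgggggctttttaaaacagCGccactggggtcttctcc
The HOXA11 window held 11 CG dinucleotides, as many as the median of 35116 RefSeq promoters of this length. The HOXA13 window held 40, more than 97.8% of them. HOXA11-AS, a long noncoding RNA of the opposite strand at chr7:27184507-27189298, has an exon across the HOXA11 window, and the gene HOTTIP spans that of HOXA13 without an exon in it. Of the motifs searched on both strands, TGATTNAT (a HOX and PBX site, in 2.48% of all promoters), TATAAA (10.7%) and CCAAT (32.01%), the HOXA11 window held none and the HOXA13 window 1 CCAAT. Promoter entries were found for 13 of the 28 members.

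**Figure D1:**
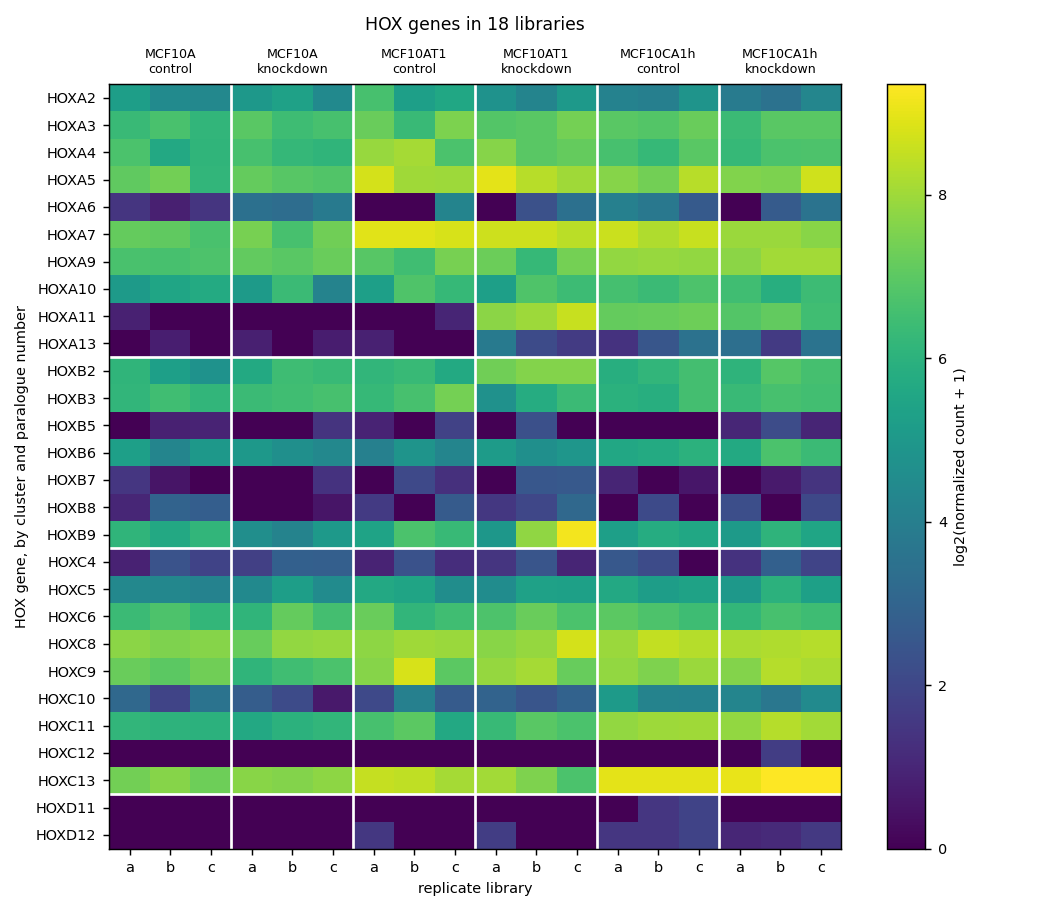
Level of the 28 HOX genes (rows, by cluster and paralogue number) in the 18 libraries (columns), as colour on a scale of log2(normalized count + 1), with white lines between groups and clusters. Most rows keep 1 colour across all groups, whereas HOXA11 is dark in the first 9 libraries and bright in the last 9.

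Of the 28 members, 19 had a mean of at least 10 normalized counts over the 18 libraries, 17 reached a mean of 50 in at least 1 group and 11 did so in every group. Listed above 0 in all 18 libraries were 18 members. HOXB5, HOXB7, HOXB8, HOXC4, HOXC12, HOXD11 and HOXD12 stayed under 10 in every library, and HOXA6 and HOXA13 stayed under 20. Both HOXD genes were listed at 0 in all 6 MCF10A libraries, and their sum reached at most 5.31, in an MCF10CA1h control library. These lines therefore had RNA of 3 clusters and next to none of the 2 HOXD genes measured. Gene spans on the same strand overlap in 12 pairs that take in 17 of the 28 members. These are HOXA9 with HOXA10, HOXA3 with HOXA4, HOXA5 and HOXA6, HOXB3 with HOXB5 and HOXB6, HOXB7 with HOXB8 and HOXB9, HOXC4 with HOXC5 and HOXC6, and HOXC6 with HOXC8 and HOXC9. Pseudo-alignment may split reads between such genes, and their levels are uncertain to that extent. HOXA7, HOXA11, HOXB2, HOXC11 and HOXC13 are in no such pair.

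Per kilobase of canonical transcript, the highest mean levels over all libraries were those of HOXC13 at 142, HOXA7 at 141, HOXA5 at 141 and HOXC9 at 134 normalized counts per kilobase. HOXC8 came next at 106, followed by HOXA9 at 78.5, HOXA4 at 70.0, HOXC6 at 60.6 and HOXB2 at 52.8. The first 3 differ by less than their spread over libraries, and the order was not that of each group. In MCF10A control HOXC9 at 97.5 and HOXC8 at 82.1 led, ahead of HOXA5 at 73.2, HOXC13 at 73.0 and HOXA7 at 62.4 per kilobase. In MCF10CA1h control HOXC13, a factor best known from hair and nail, led at 213, and in MCF10AT1 control HOXA7, an axial gene, led at 234. In MCF10AT1 knockdown HOXA5 led at 217.6, ahead of HOXA7 at 186.9. In that group HOXB2 at 108.9 and HOXB9 at 108.4 ± 109.6 (SD, n = 3) lay above HOXC13 at 78.5.

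The sum over the 10 HOXA genes was 577 ± 77.6 normalized counts (SD, n = 3) in MCF10A control, 1397 ± 150.3 in MCF10AT1 control and 1322 ± 176 in MCF10CA1h control. The HOXC sum was 696 ± 17.5, 1069 ± 251 and 1448 ± 33.9 in the same order. HOXB sums were 218 ± 26.4, 281 ± 63.5 and 246 ± 46.6. The HOXA and HOXC sums of MCF10A lay below those of both derived lines in every control library, and the HOXB sums of the 3 lines overlapped. Paralogue numbers 9 to 13 held 39.5% ± 4.61 of the members' summed level per kilobase in MCF10A control, 33.7% ± 6.81 in MCF10AT1 control and 47.2% ± 1.93 in MCF10CA1h control. In the knockdown groups the share was 33.8% ± 1.07, 38.0% ± 4.30 and 51.0% ± 2.06. The 6 MCF10CA1h libraries ran from 45.1% to 52.8%, above the other 12, of which 1 MCF10A control library came closest at 44.8%. This share includes HOXA11, with means of 54.6 per kilobase in MCF10CA1h control and 42.4 in MCF10CA1h knockdown. The HOXA11 mean was 0.101 in MCF10A control, 0.117 in MCF10AT1 control and 104.8 in MCF10AT1 knockdown. Whether the MCF10CA1h libraries would stay above the others without HOXA11 was not tested, so the narrow separation may rest on that gene.

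The profile of the 28 members was compared between groups with and without HOXA11. Across members, on log2(level per kilobase + 1), MCF10AT1 control and knockdown had r = 0.864 with HOXA11 and 0.968 over the 27 others. MCF10A control and MCF10AT1 knockdown had r = 0.864 with it and 0.967 without it. Over the 15897 genes with a mean of at least 10 this pair had 0.774, on log2(value + 1) without scaling by length. The 2 measures are unlike, and for MCF10A control and knockdown they were 0.962 over the 28 members and 0.968 over those genes. HOXA11 was left out after its change was seen, so the rise of r without it is no test. These are correlations across genes of the same libraries, which are not independent replicates, and the groups share the scaling.

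HOXA11, a posterior gene of limb, kidney and uterus development at chr7:27181157-27185232, was listed at 0.81, 0 and 0 in MCF10A control and at 0 in all 3 libraries labelled MCF10A knockdown. In MCF10AT1 control it was 0, 0 and 0.94, and in MCF10AT1 knockdown 209, 255 and 375. In MCF10CA1h it was 139.6, 142 and 155 in control and 115, 135 and 88.5 in knockdown. The gene was thus near 0 in 9 libraries and at 88.5 or more in the other 9, with no library in between. In MCF10AT1 the fitted change was 7.77 ± 0.59 (SE) on the log2(value + 1) scale (limma, adjusted p = 0.000134). Against a group this close to 0 the size depends on the constant added. With constants of 0.5 and 5 it was 8.58 and 5.71, so the fold is no measure of how many times HOXA11 rose. HOXA11 reached the mean of 10 needed for testing only through the knockdown libraries here, and it was not tested in MCF10A. It entered in the same way, through the groups where it was high, in each fit that set it against libraries near 0. Those p-values are therefore no independent support for the difference. In MCF10CA1h the knockdown libraries were all below control, by 0.38 ± 0.21 on the log2 scale (adjusted p = 0.26).

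HOXA11-AS was listed at 0 in the same 9 libraries and at 87.2, 91.1 and 126 in MCF10AT1 knockdown (limma, adjusted p = 0.000331). It was 29.7, 23.9 and 26.2 in MCF10CA1h control and 14.1, 25.0 and 33.5 in MCF10CA1h knockdown. HOXA11-AS, too, reached the mean of 10 in the MCF10AT1 fit only through the knockdown libraries. Both RNAs were therefore present in the same groups. Whether the pseudo-alignment used strand is not given in the sources used here, and since HOXA11-AS overlaps HOXA11, reads of the 2 genes cannot be told apart beyond doubt.

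The genes on either side of HOXA11 were read for comparison. HOXA13, the last HOXA gene, was 13.1, 3.41 and 2.11 in MCF10AT1 knockdown, between 1.56 and 10.9 in the 6 MCF10CA1h libraries and under 1 in the other 9, but was too low to be tested. HOXA10, on its other side at chr7:27170605-27180261, was 38.2, 109 and 76.6 in MCF10AT1 control and 38.3, 109 and 85.2 in MCF10AT1 knockdown. The change of HOXA10 was 0.05 ± 0.58 on the log2 scale, with a 95% interval from -1.27 to 1.37. HOXA10 was thus present in all 18 libraries, and in MCF10AT1 its groups overlapped fully. The part of the marker changes of the MCF10AT1 knockdown in the HOXA11 result was not tested. In MCF10CA1h control, where HOXA11 was also present, the summed epithelial markers were 61161 to 84750 and the fibroblast or mesenchymal markers 28042 to 33077. The mesenchymal markers did not all follow HOXA11. Of the 12, COL1A2, PDGFRA, LUM and POSTN had means under 10 in MCF10AT1 knockdown, where HOXA11 was highest. In MCF10CA1h knockdown COL1A2, PDGFRA and PDGFRB did. POSTN went the other way from HOXA11, with means of at least 10 in both MCF10A groups, where HOXA11 was near 0. COL1A2 and PDGFRA had means under 10 in all 6 groups. COL3A1, COL6A2 and THY1, picked from the list, had means of at least 10 in MCF10AT1 knockdown and MCF10CA1h knockdown. COL3A1 and COL6A2, which encode collagen chains, were at 2.97 or less in the 9 libraries where HOXA11 was near 0, at 385 to 1258 in MCF10AT1 knockdown and at 42.0 to 73.6 in MCF10CA1h control. THY1, a surface protein of fibroblasts, was at 1.91 or less in 8 of those 9 libraries and at 36.5 in MCF10A control c, against 1200 to 2557 and 199 to 290.

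**Figure D2:**
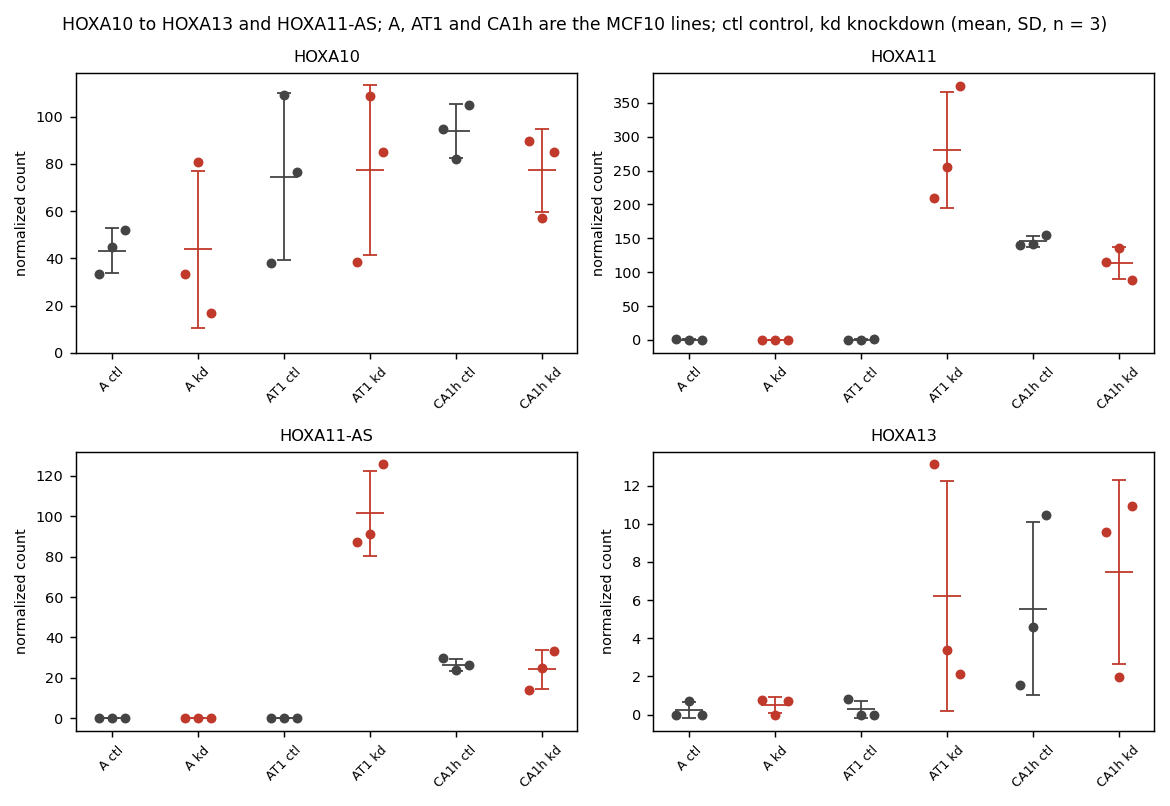
Normalized counts of HOXA10, HOXA11, HOXA11-AS and HOXA13 in each library (points) of the 6 groups, with mean and SD (bars, n = 3), control in grey and knockdown in red, on linear axes of different range. HOXA11 and HOXA11-AS are near 0 in the first 3 groups and present in the other 3, whereas HOXA10 is present in all 6.

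The knockdown of METTL3 addressed whether HOX levels differ when METTL3 is targeted in each line of the series. In MCF10A, no HOX gene of 17 tested passed an adjusted p of 0.05 by limma, where 2.65% of all 15416 genes tested did (1.16% higher and 1.49% lower). At an unadjusted p under 0.05 there were 2, HOXB9 and HOXC9, and the groups did not overlap for 4 of the 17, against 23.9% of all genes. HOXB9 was 68.7, 48.4 and 70.9 in control and 23.6, 17.2 and 31.5 in the libraries labelled MCF10A knockdown, a log2 change of -1.36 ± 0.36 (adjusted p = 0.0938). HOXC9 was 146, 127 and 158 in control against 68.5, 88.3 and 103, a log2 change of -0.74 ± 0.26 (adjusted p = 0.186). Both genes were lower in every library labelled knockdown than in any control library, but neither passed the correction. HOXA6 was too low to be tested. It was 1.71, 0.75 and 1.71 in MCF10A control and 9.92, 9.02 and 13.2 in the libraries labelled MCF10A knockdown. For 10 of the 17 members the 95% interval lay within 1 log2 unit of 0 on either side. The median log2 change was 0.17 over the members and -0.0035 over all genes.

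In MCF10AT1, HOXA11 and HOXB2 were higher in the knockdown (2 of 18 tested, against 13.0% of all 16050 genes), and no member was lower. Of all genes, 7.07% were called higher and 5.96% lower. The groups did not overlap for 5 of the 18, against 32.8% of all genes. HOXB2, an anterior gene of hindbrain patterning, was 70.8, 76.9 and 50.3 in control and 160.5, 194 and 195 in knockdown, a log2 change of 1.47 ± 0.37 (adjusted p = 0.0349). All knockdown libraries of HOXB2 exceeded all control libraries. The call was lost without MCF10AT1 control a or c, or without knockdown a, b or c, with adjusted p up to 0.167, while the change stayed between 1.29 and 1.60. It was also lost with equal library sums (1.31), where the median of all genes moved from 0.02 to -0.15. HOXA11 kept its call without any 1 library.

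Other HOX genes of MCF10AT1 did not pass the test. HOXB9, which is known in breast tumours for its link to invasion, was 42.2, 104 and 78.7 in MCF10AT1 control and 29.6, 224 and 588 in knockdown, a log2 change of 1.16 ± 0.97 (adjusted p = 0.487). Knockdown a was below every control library and knockdown c was above all other libraries of the series. HOXC13 was 372, 351 and 271 in control and 266, 187 and 102 in knockdown, a log2 change of -0.93 ± 0.41 (adjusted p = 0.189). HOXB3 was 76.5, 99.1 and 168 in control and 25.5, 54.7 and 82.5 in knockdown, a log2 change of -1.14 ± 0.55 (adjusted p = 0.226). HOXC13 and HOXB3 were lower in the knockdown library of each of the 3 letters than in the control of the same letter. With the replicate letter as a block the HOXC13 interval ran from -1.68 to -0.18 (adjusted p = 0.0685) and the HOXB3 interval from -2.13 to -0.14 (adjusted p = 0.0899), and neither passed. For 1 of the 18 members the 95% interval lay within 1 log2 unit of 0 without the block, and for 6 with it. The median absolute log2 change was 0.29 over the members and 0.62 over all genes.

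In MCF10CA1h, HOXA7 was the 1 member of 19 that passed, against 12.8% of all 15127 genes, and it was lower in the knockdown, as were 4.85% of all genes. Called higher were 7.91% of all genes and no member. The groups did not overlap for 3 of the 19, against 32.7% of all genes. HOXA7 was 389.5, 304 and 380.1 in control and 248, 246 and 204 in knockdown, a log2 change of -0.62 ± 0.16 (adjusted p = 0.0308). Every knockdown library of HOXA7 was below every control library. The call was lost without control a or c, or without knockdown b or c (adjusted p up to 0.125, log2 change -0.73 to -0.53), without the intensity trend, and in a joint fit of all 18 libraries. Of 10 basal breast epithelial markers 7 were higher in the same comparison (median log2 change 0.65), and their sum was 365748 to 370001 in control and 547398 to 647165 in knockdown. Their part in the HOXA7 result was not tested.

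For 16 of the 19 members the 95% interval lay within 1 log2 unit of 0, the closest limits of the 3 lines. HOXC13 was higher and HOXA11 lower in every MCF10CA1h knockdown library than in any control library, and neither passed the test (HOXC13 0.27 ± 0.13, adjusted p = 0.2). The median log2 change was 0.02 over the members and -0.02 over all genes.

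The difference between knockdown and control clone varied between lines for 2 HOX genes, in a fit of all 18 libraries with an interaction term. Targeting and clone cannot be told apart in it, and its p-values cover only the spread between libraries. HOXA11 reached the mean of 10 in this fit only through the libraries of MCF10AT1 knockdown and MCF10CA1h. Between MCF10AT1 and MCF10A, 2 of 19 members differed, against 21.6% of 15897 genes. These were HOXA11, by 8.06 ± 0.58 (adjusted p = 5.24e-08), and HOXC13, which was 164, 199 and 154 in MCF10A control and 205, 197 and 218 in the libraries labelled MCF10A knockdown and differed by -1.2 ± 0.38 (adjusted p = 0.0318). With the replicate letter as a block there were 4, HOXB3 and HOXB9 added, against 28.9% of all genes. HOXC13 was lower in every MCF10AT1 knockdown library than in its controls, whereas in MCF10A its groups overlapped. This difference of HOXC13 was not called without MCF10A control a or c, without the libraries labelled MCF10A knockdown a or c, or without MCF10AT1 control a (adjusted p up to 0.074).

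Between MCF10CA1h and MCF10A, the limma fit called 0 of 19 members as different in their effect, against 5.34% of all genes. At an unadjusted p under 0.05 there was 1, HOXA7, at -0.79 ± 0.32 (adjusted p = 0.203). HOXA7 was lower in every MCF10CA1h knockdown library than in its controls, whereas in MCF10A its groups overlapped.

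Between MCF10CA1h and MCF10AT1, 2 of 19 differed, against 18.2% of all genes. HOXA11 differed by -8.15 ± 0.58 (adjusted p = 5.69e-08) and HOXC13 by 1.2 ± 0.38 (adjusted p = 0.0378). HOXC13 was 498, 505 and 505 in MCF10CA1h control and 529, 640.05 and 653 in knockdown. Its call was lost without MCF10AT1 control a, MCF10AT1 knockdown b or c, any 1 MCF10CA1h control, or MCF10CA1h knockdown b or c (adjusted p up to 0.0829). With the replicate block HOXB3 was called as well. The 3 comparisons share libraries and are not independent of each other.

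**Figure D3:**
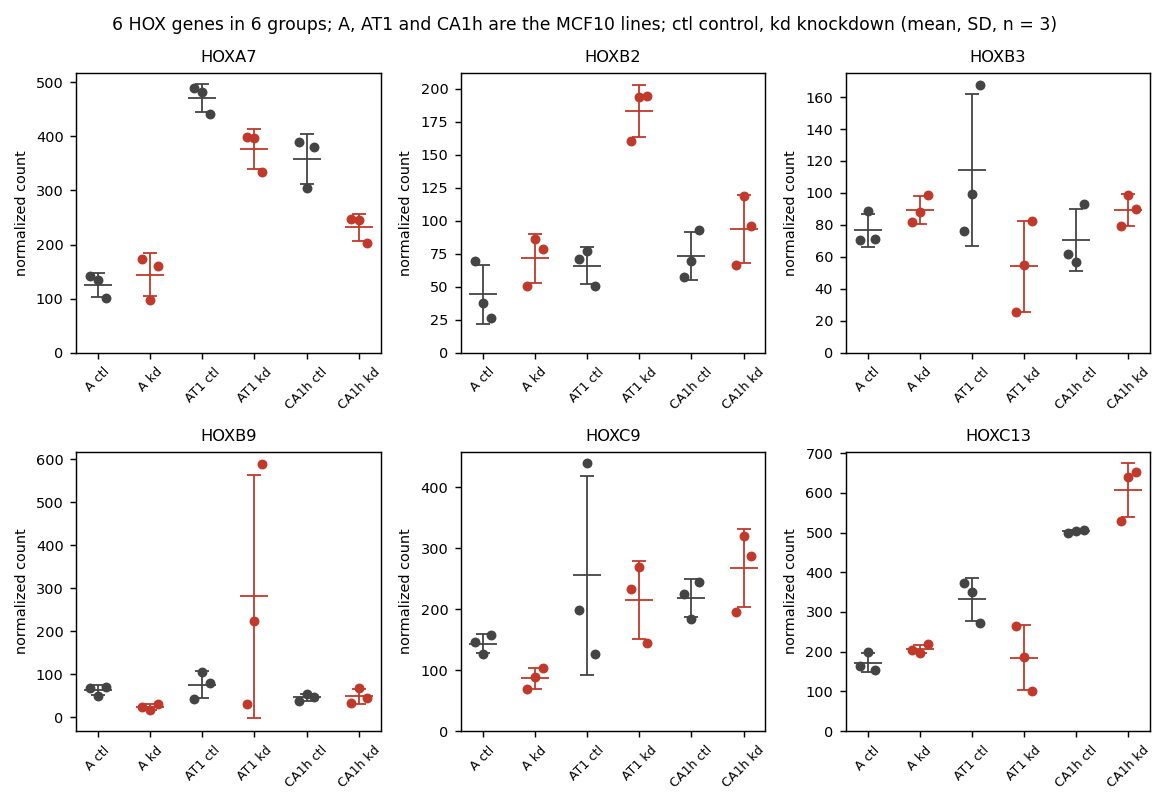
Normalized counts of HOXA7, HOXB2, HOXB3, HOXB9, HOXC9 and HOXC13 in each library (points) of the 6 groups, with mean and SD (bars, n = 3), control in grey and knockdown in red, on linear axes of different range. HOXB2 is highest in MCF10AT1 knockdown (160.5 to 195), and HOXB9 in that group spreads from 29.6 to 588.

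The control libraries addressed whether HOX levels differ along the progression series itself. Between MCF10AT1 and MCF10A control, 4 of 19 members were higher and none was lower, against 28.1% of all 15652 genes called and 13.3% called higher, with 14.7% called lower. The groups did not overlap for 6 of the 19, against 37.5% of all genes. HOXA7 was 142, 135 and 101 in MCF10A and 489, 482 and 442 in MCF10AT1, a log2 difference of 1.91 ± 0.22 (limma, adjusted p = 0.000911). HOXA5, a gene of lung and breast epithelium that is known as a p53 activator in breast cells, was 133, 163 and 70.1 in MCF10A and 434, 258 and 255 in MCF10AT1, a log2 difference of 1.40 ± 0.39 (adjusted p = 0.0291). HOXA4 was 103, 49.1 and 67.8 in MCF10A and 241, 273 and 102 in MCF10AT1, a log2 difference of 1.42 ± 0.43 (adjusted p = 0.0382). The groups of HOXA7 and HOXA5 were apart and those of HOXA4 overlapped. HOXC13 (values above) was higher by 0.94 ± 0.22 (adjusted p = 0.0143).

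Of these 4 genes, HOXA7 kept its call whichever library was left out. HOXA5 and HOXC13 lost theirs without MCF10A control c or MCF10AT1 control a (adjusted p up to 0.104 and 0.0555). HOXA4 lost its call in 7 of 9 such fits, that is, without MCF10A control b or c, MCF10AT1 control a or b, or MCF10CA1h control a, b or c (adjusted p up to 0.136). With equal library sums HOXA5 was at 1.264 and no longer passed (adjusted p = 0.0561, with 0.0113 to 0.0561 over its alternatives). The median log2 difference was 0.64 over the members and -0.01 over all genes. In the same comparison 7 of 12 epithelial markers were higher and 1 lower, 9 of 10 basal markers were lower, and 4 of 10 mesenchymal markers tested were lower. Their part in the HOX differences was not tested.

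Between MCF10CA1h and MCF10A control, 6 of 19 members were higher and none was lower, against 37.8% of all genes called and 19.0% called higher, with 18.8% called lower. The groups did not overlap for 13 of the 19, against 63.5% of all genes. HOXA11 was higher by 6.91 ± 0.56 on the log2(value + 1) scale (adjusted p = 7.33e-05), again against values near 0. HOXC11, a posterior gene of its cluster, was 69.7, 65.9 and 63.2 in MCF10A, 98.3, 126 and 49.3 in MCF10AT1 and 225, 253 and 262 in MCF10CA1h, and was 1.88 ± 0.35 higher in MCF10CA1h than in MCF10A (adjusted p = 0.00322). HOXA9, known from leukaemia and from the repression of breast tumour growth, was 100.05, 98.8 and 105 in MCF10A, 119, 88.2 and 170.0 in MCF10AT1 and 228, 239.9 and 228 in MCF10CA1h, and was 1.19 ± 0.28 higher (adjusted p = 0.00919). For both genes the MCF10CA1h libraries were above all others and the other lines overlapped. HOXC13 was 1.55 ± 0.22 higher (adjusted p = 0.000911) and HOXA7 1.51 ± 0.22 higher (adjusted p = 0.00119). The sixth gene, HOXC5, stayed at 63.4 or below in all libraries. HOXA11, HOXC11, HOXA9, HOXC13 and HOXA7 kept their calls without any 1 library. The median log2 difference was 0.92 over the members and -0.06 over all genes. Of 10 mesenchymal markers tested 6 were higher, of 12 epithelial markers 4 were higher and 5 lower, and of 10 basal markers 1 was higher and 6 lower.

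Between MCF10CA1h and MCF10AT1 control, 4 of 19 members were higher and none was lower, against 21.8% of all genes called and 11.0% called higher, with 10.8% called lower. The groups did not overlap for 8 of the 19, against 41.0% of all genes. HOXA11 was higher by 6.88 ± 0.56 (adjusted p = 8.61e-05), HOXC11 by 1.52 ± 0.35 (adjusted p = 0.0137), HOXA9 by 0.93 ± 0.28 (adjusted p = 0.0392) and HOXB6 by 1.39 ± 0.40 (adjusted p = 0.0356). HOXB6 was 15.8, 28.0 and 17.9 in MCF10AT1 and 47.7, 51.3 and 63.8 in MCF10CA1h. All 4 genes had every MCF10CA1h library above every MCF10AT1 library. HOXC11 lost its call without MCF10CA1h control b or c (adjusted p up to 0.0571). HOXB6 lost it without MCF10AT1 control a or any 1 MCF10CA1h control, and HOXA9 without 7 of the 9 libraries, all but MCF10A control a and MCF10AT1 control c (adjusted p up to 0.127 and 0.128). HOXA7 was 0.40 ± 0.22 lower in MCF10CA1h than in MCF10AT1, with no overlap and without passing the test (adjusted p = 0.226). Of the markers, 8 of 10 mesenchymal ones were higher, 5 of 12 epithelial ones lower and 4 of 10 basal ones higher, and their part in these results was not tested either. The 3 control comparisons share libraries, and their lists of called genes are not independent.

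**Figure D4:**
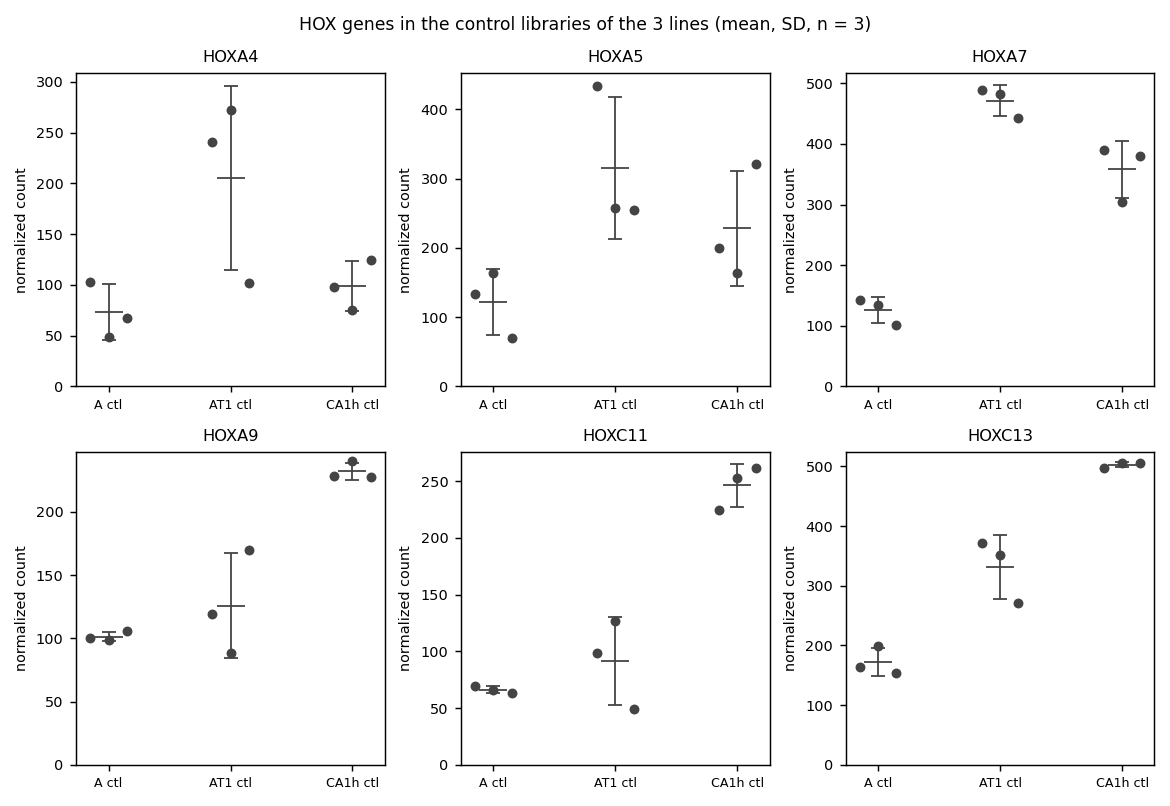
Normalized counts of HOXA4, HOXA5, HOXA7, HOXA9, HOXC11 and HOXC13 in the control libraries (points) of MCF10A, MCF10AT1 and MCF10CA1h, with mean and SD (bars, n = 3), on linear axes of different range. HOXA7 is at 101 to 142 in MCF10A and at 304 or more in the derived lines, and HOXC11 is highest in MCF10CA1h, at 225 to 262.

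The genes that work with the HOX proteins or act on the clusters were described from fixed lists. Of all genes, 2.65% were called in MCF10A knockdown, 13.0% in MCF10AT1 knockdown and 12.8% in MCF10CA1h knockdown, and the list counts are to be read beside these shares. Among TALE cofactors, of 9 listed, MEIS3 fell by 1.75 on the log2 scale in MCF10A (1 of 7 tested). In MCF10AT1 knockdown MEIS3 rose by 1.94 and PBX4 by 3.07 ± 0.54 (adjusted p = 0.00709, 2 of 8 tested), and in MCF10CA1h MEIS3 rose by 1.10 (1 of 8). PBX4 was 11.9, 8.38 and 5.18 in MCF10AT1 control and 96.6, 63.8 and 69.6 in knockdown. In MCF10CA1h it was 68.1, 51.0 and 41.6 in control and 26.7, 48.3 and 50.9 in knockdown, and it was between 3.20 and 11.1 in the 6 MCF10A libraries. PBX4, like HOXA11, was thus highest in the MCF10AT1 knockdown and in MCF10CA1h. Between MCF10CA1h and MCF10A control PBX4 was higher by 2.32, MEIS3 lower by 1.46 and PBX3 lower by 1.02 on the log2 scale. That was 1 higher and 2 lower of 8 tested, beside 37.8% of all genes called.

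Of 21 Polycomb genes, all tested, CBX6 alone was called in MCF10A (0.92 higher), beside 2.65% of all genes. In MCF10AT1 knockdown CBX6 (1.54) and PHC2 (1.52) rose, beside 13.0% of all genes called. In MCF10CA1h CBX2 (-0.81), CBX8 (-0.64), CBX6 (-0.55) and RBBP4 (-0.48) fell, beside 12.8% of all genes called. EZH2, the methyltransferase of the silencing mark on histone H3 lysine 27, was 0.78 higher in MCF10AT1 and 1.24 higher in MCF10CA1h than in MCF10A control, and its homologue EZH1 was 0.70 and 1.24 lower. Between MCF10CA1h and MCF10A control 5 Polycomb genes of 21 were higher and 2 lower, beside 37.8% of all genes called. Between MCF10AT1 and MCF10A 3 were higher and 3 lower, beside 28.1%, and between MCF10CA1h and MCF10AT1 1 was higher and none lower, beside 21.8%. Of 15 Trithorax/MLL genes none was called in MCF10A (0 at an unadjusted p under 0.05 as well). MLLT3 rose by 1.41 in MCF10AT1, and PSIP1 (-0.86) and WDR5 (-0.67) fell in MCF10CA1h knockdown. The shares of all genes were those given for Polycomb. In the controls 4 were higher in MCF10CA1h than in MCF10A, 1 in MCF10AT1 than in MCF10A and 2 in MCF10CA1h than in MCF10AT1. None was lower in these 3 comparisons, beside 37.8%, 28.1% and 21.8% of all genes called.

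Of 17 genes of retinoic acid transport, synthesis and response, 14 were in the table. DHRS3, a retinaldehyde reductase, fell by 2.26 on the log2 scale in MCF10A (1 of 11 tested, beside 2.65% of all genes called). In MCF10AT1 knockdown 3 rose and 3 fell of 10 tested, where 7.07% of all genes were called higher and 5.96% lower. These were STRA6, the retinol transporter, at 5.64, DHRS3 at 2.07 and RXRB at 0.98, against CYP26B1, which degrades retinoic acid, at -2.75, ALDH1A3, which makes it, at -2.52 and the receptor RARG at -1.19. In MCF10CA1h RXRA fell by 0.55 (1 of 11, beside 12.8% of all genes called). In the control lines STRA6 was 1.95 higher in MCF10AT1 and 3.74 higher in MCF10CA1h than in MCF10A, but the list went both ways. Of 12 tested, 2 were higher and 2 lower in MCF10AT1 than in MCF10A, beside 28.1% of all genes called. Between MCF10CA1h and MCF10A 4 were higher and 2 lower, beside 37.8%, and between MCF10CA1h and MCF10AT1 3 were higher and 1 lower, beside 21.8%. Of 6 upstream homeobox genes, EVX1 alone was in the table and was too low to be tested.

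Of 24 noncoding transcripts of the clusters, 13 were in the table. None of 7 tested in MCF10A was called (0 at an unadjusted p under 0.05), HOXA11-AS was called of 9 in MCF10AT1, and none of 9 in MCF10CA1h (0 at an unadjusted p under 0.05). Of all genes 2.65%, 13.0% and 12.8% were called in the same order. HOXA-AS2, beside HOXA3, was 43.0, 14.6 and 9.41 in MCF10A control, 75.7, 70.4 and 82.9 in MCF10AT1 control and 25.4, 12.9 and 22.8 in MCF10CA1h control. It was 2.002 ± 0.54 higher in MCF10AT1 than in MCF10A (adjusted p = 0.0249) and 1.91 ± 0.54 higher than in MCF10CA1h (adjusted p = 0.0324 for MCF10CA1h against MCF10AT1). HOXA-AS2 was thus highest in MCF10AT1, the line in which HOXA4, HOXA5 and HOXA7 had their highest control means. HOXA10-AS was 1.97 higher in MCF10AT1 and 2.33 higher in MCF10CA1h than in MCF10A, and HOXC13-AS, beside HOXC13, 1.24 and 1.08 higher. HOTAIRM1, from the HOXA cluster, was 1.42 lower in MCF10CA1h than in MCF10AT1. Of 7 transcripts tested in the controls, 3 were called higher and none lower in MCF10AT1 than in MCF10A, beside 28.1% of all genes called. Between MCF10CA1h and MCF10A 2 were higher and none lower, beside 37.8%. Between MCF10CA1h and MCF10AT1 2 were lower and none higher, beside 21.8%. HOTAIR, from the HOXC cluster, was between 10.5 and 75.6 in all libraries and was called in none of the comparisons.

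Of 19 genes flanking the clusters, 18 were in the table. None of 15 tested was called in MCF10A (3 at an unadjusted p under 0.05) and none of 16 in MCF10AT1 (1 at an unadjusted p under 0.05). In MCF10CA1h knockdown HIBADH, beside the HOXA cluster, rose by 0.46 and HNRNPA1, beside the HOXC cluster, fell by 0.35, of 16 tested. Of all genes 2.65% were called in MCF10A, 13.0% in MCF10AT1 and 12.8% in MCF10CA1h knockdown. Between MCF10CA1h and MCF10A control 6 of 16 flanking genes tested were higher and 4 lower, beside 19.0% and 18.8% of all genes, with ATP5MC1 (2.46) and CBX5 (1.37) at the upper end and CALCOCO1 (-1.17) and HIBADH (-1.14) at the lower. HIBADH and TAX1BP1, on one side of the HOXA cluster, were 1.14 and 1.10 lower in MCF10CA1h than in MCF10A, where HOXA7, HOXA9 and HOXA11 were higher.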

How the data were processed

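Total RNA of 18 libraries was sequenced by the study. The library kit depletes ribosomal RNA and is stranded, whereas the labels name polyA RNA. Per the methods and the labels, the authors quantified reads against hg38 with Kallisto 0.46.1, summed transcripts to genes with tximport and normalized with DESeq2 1.26.0 in R 4.1.1. The deposited values are a signal: DESeq2-normalized counts per gene, not raw counts, so no count test was used. The smallest values were whole multiples of a read in 7.7% to 33.2% of cases (tolerance 0.0051 per read), so read counts, and thus depth, were not recovered.

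Groups and replicate letters were taken from the sample titles. Genes averaging 10 or more in the libraries that entered a fit were tested on log2(value + 1) with limma 3.58.1 (R 4.3.3, eBayes with an intensity trend, tested on simulated data), with Benjamini-Hochberg adjustment over all genes tested and a threshold of 0.05. Each line was fitted alone (6 libraries), the controls together (9 libraries) and interactions over all 18. METTL3 was also tested by exact permutation. Same-lettered libraries deviated together in MCF10A (r = 0.221, 0.200 and 0.116) and MCF10AT1 (0.110, 0.289 and 0.477), and not in MCF10CA1h (-0.011, 0.017 and 0.046). In MCF10AT1 control b with knockdown a had 0.251, so pairing by letter was less clear there. The main fits left such pairing out, and their errors and p-values ignore it. Alternatives were other pseudocounts, filters and scaling, no trend, a joint fit, the replicate block and leaving out each library.

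Named genes were the HOX genes (1 gene of the families is not reported here and is left out of all counts and sums over members), with values in every library for those called in a comparison and with a group mean of at least 50, and from the lists of cofactors, Polycomb, Trithorax/MLL, retinoic acid, upstream homeobox, noncoding and flanking genes up to 3 called genes in each direction. Genes such as HOXB9, HOXC9, HOXB3, HOXA2, HOXA6, HOXA10, HOXA13 and PBX4 were described with values after these were seen. The members and lists were chosen with earlier results of these data known. Promoter sequences are from RefSeq, GRCh38.p14, and gene positions from GENCODE on hg38. The canonical transcript lengths behind levels per kilobase are from the same annotation.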

Additional observations from a re-analysis of the deposited data

Results flagged for a closer look

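A test of the difference between the knockdown effects of 2 lines, with an interaction term in limma over all 18 libraries, picked out 2 HOX genes. Each effect compares a knockdown clone with a control clone, so targeting and clone cannot be told apart. HOXA11 differed by 8.06 (log2) between MCF10AT1 and MCF10A and by -8.15 between MCF10CA1h and MCF10AT1, from libraries near 0 in MCF10A and MCF10AT1 control, so the sizes depend on the constant added. With constants of 0.5 and 5 the first was 9.04 and 5.78 and the second -8.96 and -6.08. HOXA11 reached the mean of 10 in this fit only through the libraries of MCF10AT1 knockdown and MCF10CA1h. HOXC13 differed by -1.2 between MCF10AT1 and MCF10A and by 1.2 between MCF10CA1h and MCF10AT1, where it was lower in all 3 MCF10AT1 knockdown libraries and higher in all 3 MCF10CA1h knockdown libraries than in the controls of the same line.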

How the results depend on the processing

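HOXA11 passed in MCF10AT1 knockdown and in MCF10CA1h control against both other lines, and HOXA7 in MCF10AT1 and MCF10CA1h control against MCF10A, as did HOXA9, HOXC11 and HOXC13 in MCF10CA1h against MCF10A, under every alternative that gave a value. No result reversed. Values of single genes stayed on the same side of the threshold in 300 alternatives and no longer passed in 60. Counts stayed within 1.5 times in 131 and moved in 37. The cause was not tested.

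With no filter, the count of HOX genes called was 1 in MCF10AT1 knockdown, 1 for MCF10AT1 against MCF10A effects and 1 for MCF10CA1h against MCF10AT1 effects. With a mean of at least 50, it was 2 in MCF10CA1h against MCF10AT1 control, where fewer genes were tested. Without the intensity trend it was 0 in MCF10CA1h knockdown. With equal library sums it was 1 in MCF10AT1 knockdown. In the joint fit of 18 libraries it was 4 in MCF10AT1 knockdown (2 higher, 2 lower) and 0 in MCF10CA1h knockdown. Equal sums moved the median of all genes from -0.01 to -0.15 in MCF10AT1 against MCF10A control and from 0.05 to 0.16 in MCF10CA1h against MCF10AT1 control.

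With the replicate block, 2 were called in MCF10CA1h against MCF10AT1 control and 4 for MCF10AT1 against MCF10A effects. The block called the same HOXA7 in MCF10CA1h knockdown, the same HOXA11 and HOXB2 in MCF10AT1 knockdown and none in MCF10A, while all genes called went from 2091 to 3939 in MCF10AT1 and from 409 to 1172 in MCF10A. It gave 3 in MCF10AT1 against MCF10A control, 5 in MCF10CA1h against MCF10A control, 0 for MCF10CA1h against MCF10A effects and 3 for MCF10CA1h against MCF10AT1 effects. In MCF10CA1h the letters share only a number.

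Leaving out each library gave 0 to 0 in MCF10A knockdown, where 2 passed an unadjusted p of 0.05. MCF10AT1 knockdown gave 1 to 2 (1 without control a or c or any knockdown library), and MCF10CA1h knockdown 0 to 1 (0 without control a or c or knockdown b or c). MCF10AT1 against MCF10A control gave 1 to 7 (1 without MCF10A c or MCF10AT1 a, 7 without MCF10AT1 c), while 10.6% to 52.2% of all genes were called. MCF10CA1h against MCF10A control gave 5 to 9 (9 without MCF10AT1 b), beside 23.4% to 48.8% of all genes, and MCF10CA1h against MCF10AT1 control 1 to 6 (1 without MCF10CA1h b or c, 2 without MCF10AT1 a or MCF10CA1h a), beside 10.3% to 35.8%. The effects gave 1 to 3 for MCF10AT1 against MCF10A (1 without MCF10A control a or c, MCF10A knockdown a or c, or MCF10AT1 control a), 0 to 0 for MCF10CA1h against MCF10A, and 1 to 3 for MCF10CA1h against MCF10AT1 (1 without MCF10AT1 knockdown b, any MCF10CA1h control, or MCF10CA1h knockdown b or c). Depth is unknown, so values near 0 carry no counting interval.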

Other observations

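The pattern of HOXA11 was looked for in all 35933 genes after its values had been seen. Genes at 1 normalized count or less in the 9 libraries of MCF10A and MCF10AT1 control and at 10 or more in the 9 libraries of MCF10AT1 knockdown and MCF10CA1h numbered 9, of which 7 were protein-coding. They were HOXA11, HOXA11-AS, PLA2G3 (a secreted phospholipase), UCHL1 (a ubiquitin hydrolase best known from neurons), SMIM10, INSYN1, MOXD1, the zinc finger gene GLIS1 and THY1-AS1, a transcript antisense to the THY1 locus. HOXA11 had the highest mean of the 9 over the libraries where it was present, 179.5, and HOXA11-AS had 50.7. PLA2G3 was 288, 152 and 42.6 in MCF10AT1 knockdown and 85.9 to 143 in MCF10CA1h control. UCHL1 was 161, 146 and 146 in MCF10AT1 knockdown and 66.8 to 110.5 in MCF10CA1h control. With the MCF10CA1h condition dropped, 31 genes were at 1 or less in the 9 and at 10 or more in the 3 MCF10AT1 knockdown libraries, and with the MCF10AT1 knockdown condition dropped, 15 were so in the 6 MCF10CA1h libraries. No other HOX gene met the rule, and no test was made of it.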
